A study of Mus musculus with 31 samples.

Results

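The genes described here mark neurons, their cytoskeleton and their capacity to make the transmitter GABA: Nefl, Nefm, Nefh, Map2, Tubb3, Stmn2, Thy1, Camk2a, Gad1 and Gad2. All 10 listed genes were found by symbol in the platform annotation, among 15096 genes with 1 symbol, and they were measured by 12 probes of 23040 spots. Thy1 and Gad2 had 2 probes each and the other 8 genes had 1. For each of 31 BXD/TyJ strains, RNA from the whole brain was set against that of C57BL/6J by 2-colour hybridisation, each strain on a single glass array (20 ug of RNA in each channel, no dye swap). BXD lines are recombinant inbred mice whose founders were C57BL/6J and DBA/2J. All animals, those of the C57BL/6J reference included, were males aged 8 weeks, and equal amounts of RNA from 3 animals made each strain pool. Strain RNA carried Alexa Fluor 647 and C57BL/6J RNA Alexa Fluor 555 on every array. Of the strains, 7 were numbered 33 to 42 and 24 were numbered 1 to 32.

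Each value is a log ratio, read here as log2 of strain over C57BL/6J. That reading follows the channel order and sample titles, since neither the log base nor the direction was stated, so all signs below would turn together in the other direction. A log ratio gives no level, so abundance could not be compared between genes, and whether the neuronal genes were present could not be checked from these values. In pooled whole-brain RNA, fewer cells of a type and less RNA per cell cannot be told apart. With 1 array of 1 pool per strain, strain and array cannot be told apart either, and tests measure the spread between these 31 arrays.

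Neurofilaments are intermediate filaments of axons, assembled from a light, a medium and a heavy chain encoded by Nefl, Nefm and Nefh, and they set axon calibre. Microtubules form the other main track of axons and dendrites. GABA, the main inhibitory transmitter of the brain, is made from glutamate by a pair of glutamate decarboxylases, GAD67 from Gad1 and GAD65 from Gad2. GAD67 makes most of the basal GABA, and GAD65 is concentrated at nerve terminals.

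The arrays fell into sets that the labels do not name. On the first principal component, with 29.1% of the variance, 7 arrays stood apart, those of BXD38, BXD36, BXD28, BXD23, BXD20, BXD8 and BXD6. On the second, with 12.1%, 8 arrays did so, those of BXD42, BXD40, BXD39, BXD34, BXD33, BXD27, BXD22 and BXD15. They are called here the first set and the second set, and the other 16 the core arrays. The sets were drawn from the data and are no groups of the study, so values by set are given without a test. Probe numbers run in blocks of 8, and the spots at the eighth place had a median mean log ratio of −0.45, against 0.03 to 0.12 at the other places. Map2 and the second Gad2 probe lay at the eighth place. The 232 spots annotated to Gapdh, 231 of them at that place, had means from −1.43 to 1.09, with quartiles of −0.44 and 0.0042. All 10 genes described here lay inside the full range. That range is set by extreme spots at a shifted place, so it cannot judge single genes.

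The first comparison asked which of the genes had a mean log ratio that differed from 0 over the strains. Gad2 had the mean farthest from 0, at −0.60 ± 0.03 (SE, n = 31), which corresponds to 1.52-fold, and its log ratio was below 0 on all 31 arrays. Nefh, Gad1, Stmn2 and Nefm had positive means that passed the test, and Camk2a and Nefl negative ones. Map2, Tubb3 and Thy1 did not pass. In limma's moderated test adjusted over 21262 features, the passing genes were thus 4 positive and 3 negative of 10. Over all features, 42.1% passed as positive and 33.9% as negative. With 76.1% of all features passing in either direction, 7 of 10 is close to the background. The median of the 10 means was 0.03, against 0.04 over all features. When the mean had to exceed 1.2-fold (limma treat), Gad2 was the 1 gene of 10 that passed, with a negative mean. The share of all features was 27.9% in either direction, 12.4% positive and 15.6% negative.

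**Figure D1:**
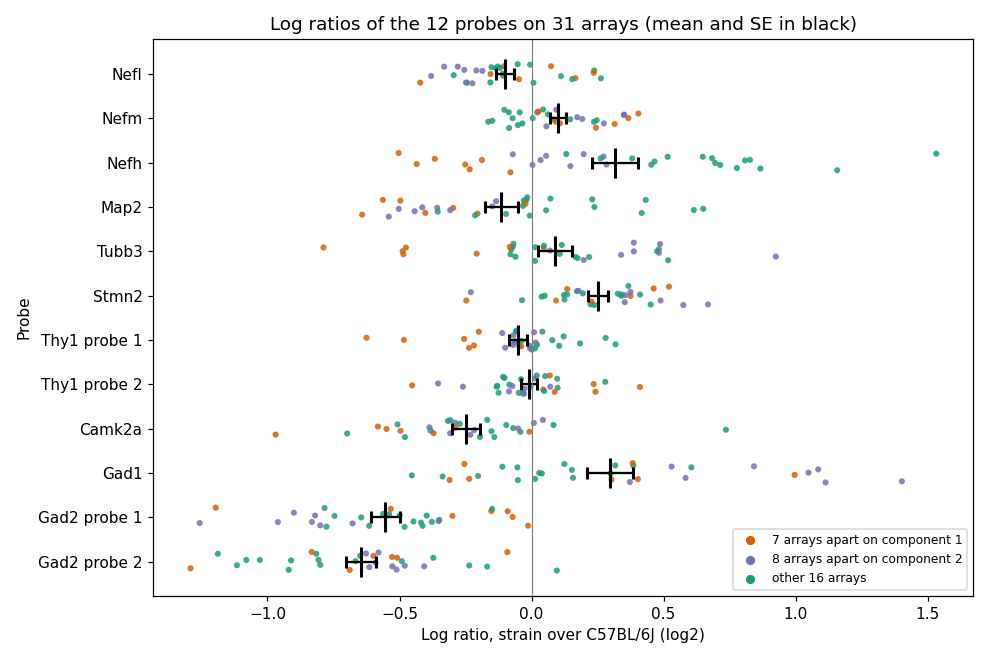
Log ratios of the 12 probes (rows) on the 31 arrays (points, log2, horizontal axis), coloured by set of arrays, with the mean and SE in black. The first Gad2 probe lies below 0 on all 31 arrays and the second on 30, while Nefh and Gad1 spread the widest, over about 2 log2 units.

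Among the neurofilament genes, the light chain had a slightly negative mean and the heavy chain a positive one. Nefl ranged from −0.42 in BXD8 through a median of −0.13 to 0.26 in BXD29, and was below 0 on 23 of 31 arrays. The Nefl mean of −0.10 ± 0.03 (SE, n = 31) passed (limma adjusted p = 0.0096). Few arrays moved it far from the C57BL/6J value: its SD of 0.18 stood at the 14.6th percentile of all features. Nefm ran from −0.16 in BXD18 through 0.08 to 0.40 in BXD38, and its mean was 0.10 ± 0.03 (limma adjusted p = 0.0049) with 22 arrays above 0. This call of Nefm was lost with arrays centred by place (0.05, limma adjusted p = 0.15), without the first set of arrays (0.06, adjusted p = 0.074) and without the second (0.07, adjusted p = 0.10). Nefh ran from −0.50 in BXD20 through 0.27 to 1.53 in BXD32, and averaged 0.32 ± 0.09 (limma adjusted p = 0.0011), with 23 arrays above 0. Nefh was the most variable of the 10 genes, with an SD of 0.48 at the 87.6th percentile.

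The spread of Nefh followed the sets of arrays. All 7 arrays of the first set lay below 0, from −0.50 to −0.08, and all 16 core arrays above it, from 0.13 to 1.53. The second set lay between them at −0.07 to 0.28, overlapping the lower end of the core arrays. The sets held 72.0% of the variance of Nefh, against a median of 33.8% and a 90th percentile of 67.7% over all features. Nefm was lower in the core arrays, with a mean of 0.00 against 0.22 in the first and 0.19 in the second set, and with the core arrays alone it no longer passed (0.0020, limma adjusted p = 0.96), in a setting where 76.1% of all features did. Nefl had means of −0.04, −0.26 and −0.05 in the first set, the second set and the core arrays. All 8 arrays of the second set lay between −0.38 and −0.19. Without them, the mean of Nefl was −0.04 and did not pass (limma adjusted p = 0.34), while 70.7% of all features passed.

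Nefl and Nefm are neighbours on chromosome 14 in RefSeq's GRCm38.p6 annotation, with 0 measured genes between them. Their r was −0.27 over the 16 core arrays, and −0.14 over the 31 arrays once set means were removed. Nefl was below Nefm on 25 of 31 arrays, by 0.20 ± 0.05 (SE, n = 31; sign-flip permutation p = 0.00050, adjusted p = 0.0010 over 8 pairs). This difference was 0.05 in size on the core arrays (permutation adjusted p = 0.47). Nefl was below Nefh by 0.42 ± 0.10 on average, on 25 of 31 arrays (permutation p = 0.00024, adjusted p = 0.00064). Nefm and Nefh did not separate after adjustment (difference −0.22, 95% interval −0.43 to −0.0043; permutation p = 0.047, adjusted p = 0.053), but on the core arrays the difference was −0.68 (adjusted p = 0.00012).

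The microtubule genes were Map2, whose product bundles microtubules in dendrites, Tubb3, the neuron-specific beta tubulin, and Stmn2, a stathmin that binds tubulin and acts in axon growth and regeneration. Of these, Stmn2 alone passed the test. Stmn2 ran from −0.25 in BXD36 through 0.24 to 0.67 in BXD33. It was above 0 on 28 of 31 arrays, and averaged 0.25 ± 0.04 (SE, n = 31; limma adjusted p = 6.4e-07). It was also the gene least tied to the sets of arrays, which held 6.89% of its variance, with means of 0.22, 0.35 and 0.22 in the first set, the second set and the core arrays.

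Map2 and Tubb3 behaved differently from Stmn2 and from each other over the sets. Map2 ran from −0.64 in BXD20 through −0.13 to 0.65 in BXD9, and averaged −0.11 ± 0.06 (SE, n = 31; limma adjusted p = 0.083). Its mean was −0.38 in the first and −0.36 in the second set, where all 15 arrays were below 0, but 0.12 in the core arrays. Since its probe lay at the eighth place, centring each array by place turned its mean to 0.30 (limma adjusted p = 0.00028, with 73.6% of all features passing). Tubb3 ran from −0.79 in BXD8 through 0.07 to 0.92 in BXD33, and averaged 0.09 ± 0.06 (SE, n = 31; limma adjusted p = 0.19). It was negative in the first set, at a mean of −0.35, and positive on every array of the second, at 0.41, with the core arrays at 0.12. Without the first set the mean of Tubb3 was 0.22 and passed (limma adjusted p = 0.00039), as did 79.4% of all features. The sets held 52.3% of the variance of Map2 and 58.4% of that of Tubb3.

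Map2 was below Stmn2 by 0.37 ± 0.08 (SE, n = 31; permutation adjusted p = 0.00064) and below Tubb3 by 0.20 ± 0.09 (permutation adjusted p = 0.035), and both directions turned when arrays were centred by place. Tubb3 was below Stmn2 by 0.16 ± 0.06, on 22 of 31 arrays (permutation adjusted p = 0.023). On the core arrays alone none of these 3 pairs passed (permutation adjusted p from 0.20 to 0.98).

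**Figure D2:**
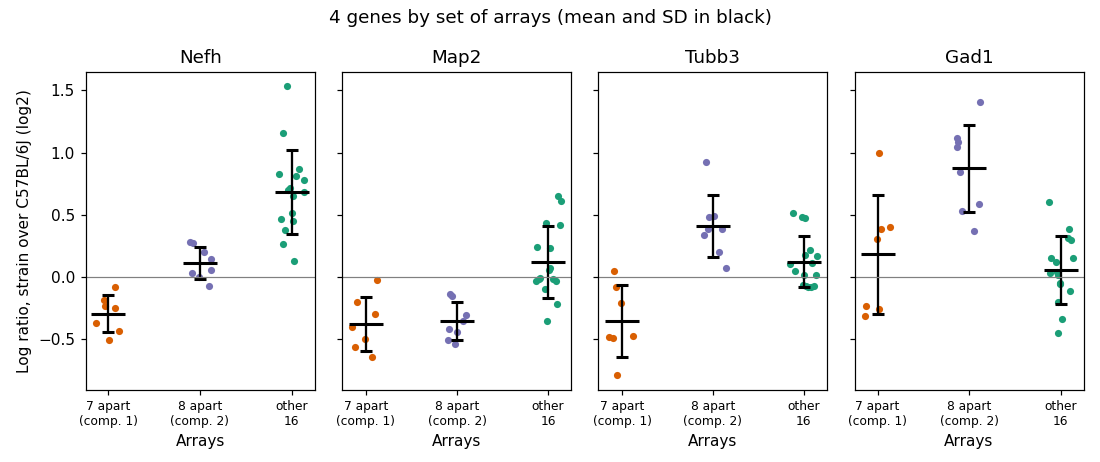
Log ratios (log2) of Nefh, Map2, Tubb3 and Gad1 on the 7 arrays of the first set, the 8 of the second and the 16 core arrays, with means and SDs in black. Nefh is below 0 throughout the first set and above 0 throughout the core arrays, whereas Gad1 is above 0 on all 8 arrays of the second set.

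The glutamate decarboxylases were far apart. Gad1 had a positive mean of 0.30 ± 0.09 (SE, n = 31; limma adjusted p = 0.0019) and Gad2 a negative one of −0.60 ± 0.03 (limma adjusted p = 4.7e-17). The SE of Gad2 is that of 2 probes averaged. Each Gad2 probe alone had an SE of 0.06 (limma adjusted p = 8.0e-11 and 3.7e-12). Gad1 was above Gad2 on 30 of 31 arrays, by 0.90 ± 0.10 (SE, n = 31; permutation p = 2e-05, the smallest that 100000 sign flips gave; adjusted p = 0.00016). This is a difference of 2 log ratios, not of levels, and any fixed effect of a probe is part of it. BXD32, with the lowest Gad1 value and the highest Gad2 value, was the exception. The size of the Gad1 minus Gad2 difference depended on the setting. It was 0.63 with arrays centred by place, 0.67 without the second set, 0.66 on the core arrays and 0.96 without the first set. Each of these passed (permutation adjusted p at most 0.00024).

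Gad1 ranged from −0.45 in BXD32 and −0.34 in BXD1 to 1.11 in BXD22 and 1.40 in BXD34, with a median of 0.30. The second set had the highest mean of Gad1, 0.87, and its 8 arrays lay from 0.37 to 1.40. The first set had a mean of 0.18, with BXD20 at 1.00 and BXD8 at −0.31. The core arrays had a mean of 0.06 and ran from −0.45 to 0.61. Without the second set, the mean of Gad1 was 0.10 and did not pass (limma adjusted p = 0.22). Its SD of 0.48 stood at the 87.5th percentile, and the sets held 52.3% of its variance.

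Both Gad2 probes were negative. The first, annotated to AK018118 and at the fifth place, ran from −1.26 in BXD15 through −0.53 to −0.01 in BXD38, with a mean of −0.55 ± 0.06 (SE, n = 31) and no array above 0. The second, annotated to NM_008078 and at the eighth place, ran from −1.29 in BXD36 through −0.61 to 0.10 in BXD32, with a mean of −0.65 ± 0.06 and 30 of 31 arrays below 0. Averaged over its probes, Gad2 had 1 sign on all 31 arrays, as did 10.2% of all features. The first probe stood at the 6.63rd percentile of the spots at its place, whereas the second stood at the 36.5th percentile of the eighth-place spots. Their means differed by 0.09 (95% interval −0.10 to 0.28; permutation p = 0.33, adjusted p = 0.33). Centred by place, the first probe had a mean of −0.60 and the second of −0.23, and their difference turned to −0.37 (permutation adjusted p = 0.00091).

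Over the strains the Gad2 probes did not rank the arrays alike. Their r was −0.18 over the core arrays, −0.77 over the first set and −0.03 over the second set, with the same arrays and hybridisations behind both probes. BXD36, the lowest on the second probe at −1.29, was among the highest on the first at −0.07, and BXD23 was at −1.20 on the first and −0.09 on the second. The mean of the probes therefore varied less than either, with an SD of 0.17 against 0.31 and 0.32. In the first probe the second set was lowest, with a mean of −0.82, against −0.34 in the first set and −0.51 in the core arrays. In the second probe the order was different, at −0.54 in the second set, −0.65 in the first and −0.70 in the core arrays.

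**Figure D3:**
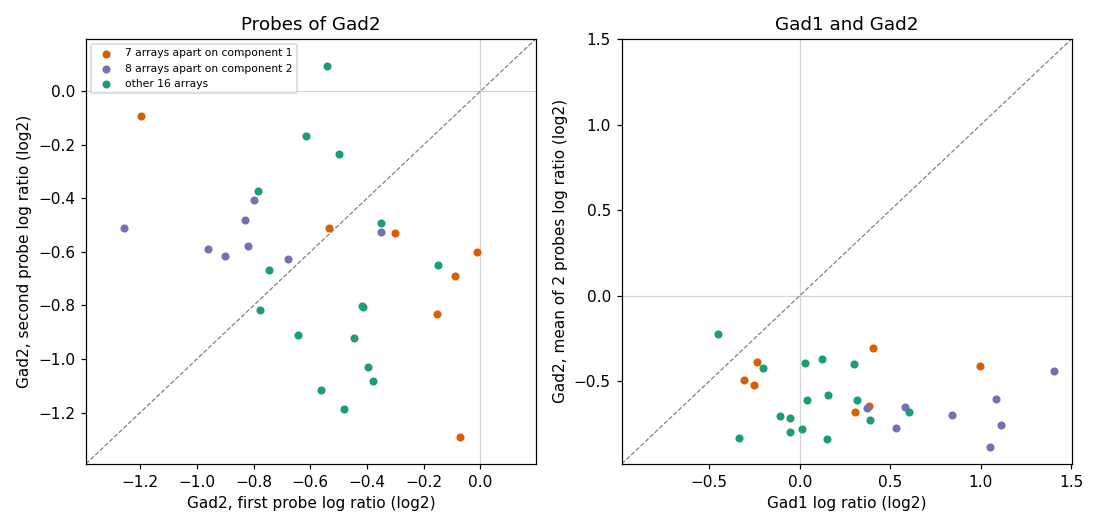
Log ratios (log2) of the second against the first Gad2 probe (left) and of Gad2, as the mean of its probes, against Gad1 (right), 1 point per array, with the line of equality dashed. Gad2 probes lie on both sides of the line, with 17 arrays higher on the first probe, whereas Gad1 is higher than Gad2 on 30 of 31 arrays.

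RefSeq promoter windows of GRCm38.p6, from 250 bases before to 50 after the annotated gene start, were at hand for 4 of the 10 genes. They are shown for the decarboxylase pair, whose mean log ratios had opposite signs, and for the microtubule genes Map2 and Tubb3, whose values differed over the sets of arrays. Capitals mark 4 motifs on either strand. They are the GC box, spelled GGGCGG, the core of the cyclic AMP response element, spelled TGACG, the TATA box, searched as TATAAA, and the CCAAT box, searched by those 5 letters, and no 2 of the marked stretches overlap.
Gad1 promoter, chr2:70561879-70562178, strand +: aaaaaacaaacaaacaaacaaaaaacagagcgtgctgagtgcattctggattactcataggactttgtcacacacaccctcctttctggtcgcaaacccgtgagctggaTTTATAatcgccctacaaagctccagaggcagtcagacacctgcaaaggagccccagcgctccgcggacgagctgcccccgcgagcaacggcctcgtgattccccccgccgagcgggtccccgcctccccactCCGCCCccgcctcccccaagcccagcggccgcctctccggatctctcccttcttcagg
Gad2 promoter, chr2:22622077-22622376, strand +: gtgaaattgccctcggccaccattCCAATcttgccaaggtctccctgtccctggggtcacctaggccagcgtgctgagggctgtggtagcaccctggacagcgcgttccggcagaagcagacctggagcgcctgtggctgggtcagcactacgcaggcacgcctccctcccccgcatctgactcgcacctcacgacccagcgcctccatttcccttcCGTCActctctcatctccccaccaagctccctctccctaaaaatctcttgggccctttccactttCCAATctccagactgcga
Map2 promoter, chr1:66175079-66175378, strand +: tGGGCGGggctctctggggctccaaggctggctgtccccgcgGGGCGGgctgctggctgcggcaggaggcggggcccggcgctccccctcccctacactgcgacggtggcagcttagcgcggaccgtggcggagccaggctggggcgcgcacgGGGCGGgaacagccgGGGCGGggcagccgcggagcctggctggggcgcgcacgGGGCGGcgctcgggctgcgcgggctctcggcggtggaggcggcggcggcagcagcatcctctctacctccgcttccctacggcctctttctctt
Tubb3 promoter, chr8:123411303-123411602, strand +: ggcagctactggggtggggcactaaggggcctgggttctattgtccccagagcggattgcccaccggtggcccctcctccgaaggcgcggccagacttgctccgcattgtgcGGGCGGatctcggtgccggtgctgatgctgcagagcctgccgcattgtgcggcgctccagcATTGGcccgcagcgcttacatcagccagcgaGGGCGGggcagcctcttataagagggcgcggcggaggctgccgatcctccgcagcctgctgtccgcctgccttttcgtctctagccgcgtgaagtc
The GC box letters occurred 5 times in the Map2 window, 2 times in Tubb3, 1 time in Gad1 and 0 times in Gad2, and 35.9% of 27025 windows of the same length hold them. Gad1 held the TATA box letters on the minus strand, as 14.2% of all windows do on either strand. Gad2 held the TGACG core once and CCAAT 2 times, and Tubb3 held CCAAT once, against shares of 21.0% and 37.9%. The GC content was 60.0% for Gad1, 61.3% for Gad2, 77.7% for Map2 and 67.3% for Tubb3, with a median of 52.7% over all windows. A match is a description of these letters, not a binding site.

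Thy1 encodes a glycoprotein of the neuronal surface, and Camk2a the alpha subunit of a calcium-dependent kinase of excitatory forebrain synapses. The Thy1 mean did not pass. Its first probe had a mean of −0.05 and its second of −0.01, and the mean of both was −0.03 ± 0.02 (SE, n = 31; limma adjusted p = 0.25). With arrays centred by place, however, the mean of Thy1 was −0.08 and passed (limma adjusted p = 0.0024). Averaged over its probes Thy1 had the smallest SD of the 10 genes, 0.11. The probes differed by set: the first was lowest in the first set, at −0.29, where the second averaged 0.09. Their r was 0.03 over the core arrays, −0.13 over the first and −0.31 over the second set. Camk2a ran from −0.97 in BXD20 through −0.27 to 0.74 in BXD29, and was below 0 on 27 of 31 arrays, averaging −0.25 ± 0.05 (SE, n = 31; limma adjusted p = 7.5e-05). The means of Camk2a were negative in all 3 sets, at −0.47, −0.18 and −0.19 for the first set, the second set and the core arrays. BXD29 was the only array above 0.10 for Camk2a.

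**Figure D4:**
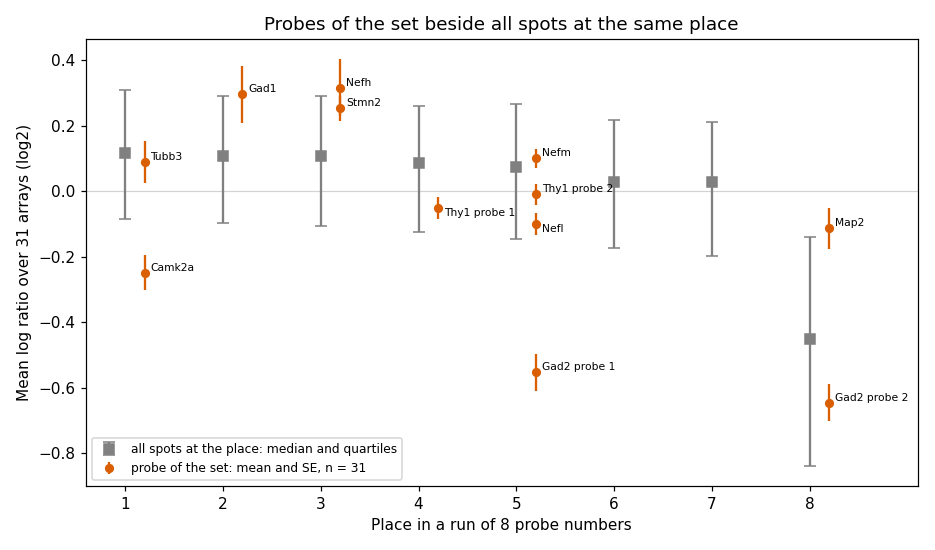
Mean log ratio over the 31 arrays (log2) against the place of a probe in a run of 8 probe numbers: grey squares give the median and quartiles of all 2880 spots at a place, orange points the 12 probes with their SE. The first Gad2 probe lies below the lower quartile of its place, whereas Map2 and the second Gad2 probe lie at the eighth place, where the median spot is at −0.45.

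Placed in order of their means, the genes ran from Gad2 at −0.60 over Camk2a, Map2, Nefl, Thy1, Tubb3, Nefm, Stmn2 and Gad1 to Nefh at 0.32. Of the pairs that stand next to each other in this order, none was among the pairs tested. Neighbours in the order differed by less than the SD of either gene over arrays, except Gad2 and Camk2a, and Thy1 and Tubb3. In 6 genes (Nefl, Nefm, Stmn2, Camk2a, Gad1 and Gad2) the means of the 3 sets of arrays had 1 sign, and in the other 4 (Nefh, Map2, Tubb3 and Thy1) they did not. The share of all features with 1 sign over the sets was not counted. As the sets were cut from these same data, the count of 6 is no result about these genes.

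The 10 genes did not vary as 1 group over the strains, though some pairs kept a sign. Of the 45 pairs among them, 10 had a positive and 8 a negative r in all 3 sets of arrays, and 27 changed sign between sets. How often pairs of other genes keep a sign was not counted. Over the 16 core arrays the median r was 0.00040 and the range −0.58 to 0.59. With set means removed, the highest r over 31 arrays was that of Nefm and Thy1, 0.62, which was positive in the core arrays (0.53), the first set (0.81) and the second (0.54). The lowest was that of Nefl and Nefh, −0.48, negative in each set (−0.58, −0.28 and −0.59). Nefh and Map2 were positively related in each set, most in the first (0.98, n = 7 arrays) and least in the second (0.10). Gad1 and Gad2 had −0.18 over the core arrays, 0.05 over the first set, 0.31 over the second and −0.01 with set means removed. All these points share the arrays, so hybridisation enters every r. Thy1 and Gad2 enter as means of 2 probes each, whose own r with set means removed was −0.09 and −0.37. The r of their single probes with other genes is not given.

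**Figure D5:**
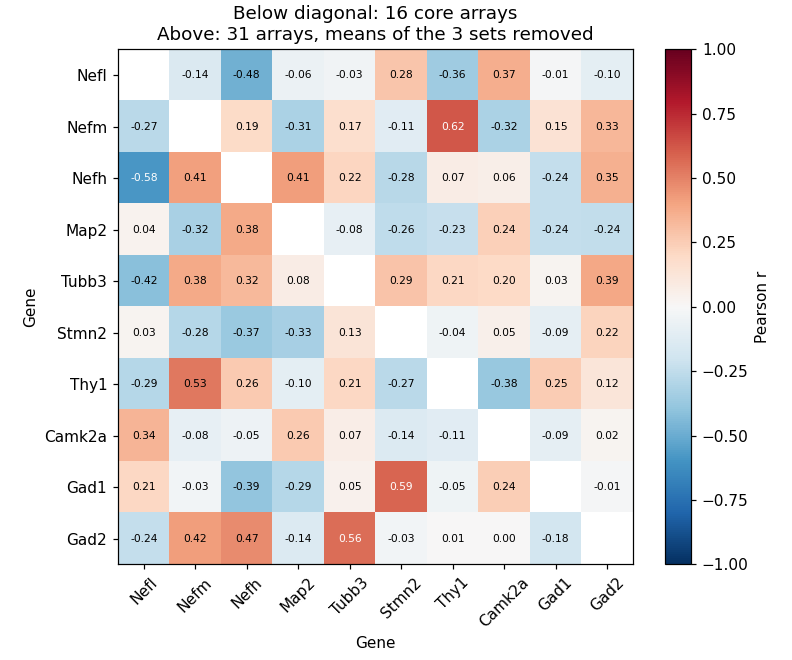
Pearson r between the 10 genes, over the 16 core arrays below the diagonal and over the 31 arrays with the means of the 3 sets removed above it. The lowest value above the diagonal is −0.48 for Nefl and Nefh, and the highest is 0.62 for Nefm and Thy1. Thy1 and Gad2 are each the mean of 2 probes that did not vary alike.

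Single strains stood out in several genes. BXD20 was among the 3 lowest arrays for Nefh, Map2, Tubb3 and Camk2a and among the 3 highest for Nefm. BXD38, of the same set, was among the 3 lowest for Nefh, Map2 and Camk2a and the 3 highest for Nefm and Gad2. BXD29, a core array, was among the 3 highest for Nefl, Map2 and Camk2a and the 3 lowest for Nefm and Gad2. These 3 strains each appeared 5 times, the most of any strain.

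The genes most like each one were sought among 15095 others, after the means of the array sets had been removed. How high the best of that many unrelated genes would reach was not estimated. Thy1 and Gad2 again stand for means of probes that did not vary alike. For Nefl the highest r were those of Ppm1b (0.73), Rap1b and Fundc1, and for Nefm those of Ptgis (0.72), Psd and Slc25a35. Nefh was nearest to Rap1gap (0.83), Uqcr11 and Tmem50b. Map2 was nearest to 2700003A03Rik (0.74), Cfap126 and Amacr, Tubb3 to Sec61g (0.77), Eif6 and Stac, and Stmn2 to Dzip3 (0.74), Upk3a and Cldn8. Thy1 was nearest to Abtb1 (0.76), Hexim2 and Ikzf2, and Camk2a to Cdc42ep4 (0.83), Ubxn11 and Eps15l1. Gad1 was nearest to Mgrn1 (0.75), Rnu11 and Bicdl1, and Gad2 to 1700061J23Rik (0.74), the neuronal adhesion gene Nrcam and Pcbp4. With the set means left in, other genes led for most: Rplp2 (0.93), Emc8 and Hyal2 for Nefh, Ywhaz (0.85), Ppia and 2900093K20Rik for Map2, Tef (0.84), 4933428C19Rik and Tmco1 for Tubb3, and Acsl4 (0.86), Trpm5 and 4933421I07Rik for Gad1. Nefl then was nearest to Cenpk (0.70), Nkrf and Eme2, Nefm to Abtb1 (0.81), Tunar and Mrpl40, and Thy1 to Aar2 (0.74), 3300002P13Rik and C1qb. Camk2a, Stmn2 and Gad2 kept a partner in both: Cdc42ep4 (0.84) and Eps15l1, now with Fundc2, led for Camk2a, Upk3a (0.74), now with Eps8 and Snrk, for Stmn2, and 1700072O05Rik (0.73) with 1700061J23Rik and Degs1 for Gad2.

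In recombinant inbred lines neighbouring genes tend to share parental alleles, and each gene was also set beside the 20 measured genes within 10 places of it on its chromosome. With set means removed, the median r with these neighbours lay between −0.10 for Nefm and 0.10 for Thy1. The closest neighbours were Rbm22 for Camk2a (0.59), the respiratory chain gene Uqcr10 for Nefh (0.54), Tecta for Thy1 (0.51) and the ribosomal protein gene Rpl13 for Tubb3 (0.46). For Gad1 and Gad2, both on chromosome 2, no neighbour went beyond 0.32. How high the best of 20 genes from elsewhere would reach was not estimated, so sharing of alleles was not tested.

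The other genes of the same structures and pathways were read from lists, beside the 42.1% of all features that passed as positive and the 33.9% that passed as negative (76.1% in all). Among 8 other intermediate filament genes, 4 had positive and 1 negative means past the test, with Nes, of neural progenitors, at 0.51 ± 0.08 (SE, n = 31), Lmnb2, a nuclear lamin, at 0.42 and Prph, of peripheral neurons, at −0.54. Ina, which joins the neurofilaments of the brain, had 0.07 (limma adjusted p = 0.20). Of 13 other tubulins, 8 were positive and 2 negative. The alpha tubulins Tuba1b and Tuba1c had 0.72 ± 0.15 and 0.68 ± 0.08, whereas Tuba4a had −1.004 ± 0.08 and Tube1, on an eighth-place probe, −1.54 ± 0.13. Isotypes within the alpha and within the beta tubulins are close in sequence, and how far their probes tell them apart was not tested.

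Of 32 microtubule-associated genes, 13 were positive and 14 negative, where all features gave 42.1% and 33.9%. Stmn3, a relative of Stmn2, had 0.42 ± 0.06 and the tubulin chaperone gene Tbcd 0.45 ± 0.08 (SE, n = 31), while Dclk1, a doublecortin-like kinase, had −0.80 ± 0.05 and Pafah1b1, a dynein regulator at the eighth place, −0.96 ± 0.07. Motor genes of axonal transport were positive in 8 of 21 and negative in 7. The kinesins Kif1b and Kif3b had 0.79 ± 0.09 and 0.76 ± 0.05, against −0.68 for Kif1a, at the eighth place, and −0.73 for the dynein light chain gene Dynlt3. Of 15 axon and membrane scaffold genes, 9 were positive, such as Basp1 at 0.40 and Marcks at 0.36, and 5 negative, such as Gap43 of growth cones at −0.84 and Epb41l3, at the eighth place, at −0.75. In the CaMK list 3 of 9 were positive and 3 negative: the kinase inhibitor gene Camk2n1 had 0.50 ± 0.06 and Calm2, at the eighth place, 0.48, and Camk2g had −0.48 ± 0.07 and Calm3 −0.46.

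Around GABA, 2 of 13 genes of metabolism and transport were positive and 4 negative, so that 46.2% passed, against 76.1% of all features (42.1% positive and 33.9% negative). Slc32a1, the vesicular GABA transporter, had 0.17 ± 0.04 (SE, n = 31), Pdxk, which makes the cofactor of glutamate decarboxylase, 0.37 ± 0.05, and Gphn, the scaffold of inhibitory synapses, −0.54 ± 0.04. Glutamine synthetase, Glul, had −0.54 ± 0.09, and both Glul and a probe of Gphn lay at the eighth place. The GABA-degrading enzymes Abat and Aldh5a1 had 0.11 and 0.0045 and did not pass (limma adjusted p = 0.28 and 0.94). Of 17 interneuron genes 6 were positive, with Dlx5 at 0.58 and Calb2 at 0.51, and 9 negative, with Lhx1 at −0.56 and Penk, at the eighth place, at −1.27. Of 8 glutamatergic genes 3 were positive, with Nrgn at 0.61 and Rtn4r at 0.20, and 3 negative, with Slc17a6 at −0.40 and Emx1 at −0.24. Of 12 genes of all neurons 4 were positive, with Nsg1 at 0.63 and Syt1 at 0.59, and 3 negative, with Elavl4 at −0.39 and Vsnl1 at −0.17.

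Markers of other cells were read in the same way, against the same 42.1% of all features positive and 33.9% negative. Of 11 oligodendrocyte genes 8 had positive means and 1 a negative one, with Mal at 0.44, Cnp at 0.42 and Olig2 at −0.12. The 9 astrocyte genes held 2 positive and 4 negative means (S100b at 0.41, Gjb6 at 0.36, Gja1 at −0.99 and Sox9 at −0.51), and of 9 microglial genes, 3 and 3 (Tyrobp at 0.59, Cd68 at 0.41, C1qa at −0.94 and, at the eighth place, P2ry12 at −0.67). Of 10 endothelial genes, 6 were positive and 3 negative (Pecam1 at 0.61, Cldn5 at 0.53, Tie1, at the eighth place, at −0.93 and Slc2a1 at −0.59), of 5 choroid plexus genes, 3 and 2 (Aqp1 at 0.31, Otx2 at 0.21, Ttr at −0.43 and Kl at −0.11), and of 4 blood genes, 0 and 3 (Bpgm at −0.27 and Slc4a1 at −0.22). Over the sets, the mean of the pan-neuronal list ran from −0.32 to −0.01 in the first set, from 0.07 to 0.24 in the second and from −0.0025 to 0.35 in the core arrays. Its first set thus lay below the second on every array. In the axon and membrane scaffold list the first set lay above the second on every array. That list ran from −0.03 to 0.13, from −0.24 to −0.08 and, in the core arrays, from −0.16 to 0.30. The tubulin list ran from −0.38 to −0.18, from −0.13 to 0.06 and from 0.07 to 0.44 and did not overlap between any of the sets. The oligodendrocyte list overlapped among all 3 (0.0024 to 0.48, 0.14 to 0.32 and −0.03 to 0.38), as did the astrocyte list (−0.29 to −0.0041, −0.10 to 0.13 and −0.55 to 0.06). As the sets were cut from these same data, gaps between them are no result about the listed genes. The median share of variance between sets was 46.2% for the tubulins and 37.5% for the pan-neuronal genes, against 33.8% over all features. How many features or other lists separate by set was not counted. The part of cell composition in the values of single genes was not tested.

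The second comparison set the 7 strains numbered 33 to 42, which come from a later round of crosses, against the 24 numbered 1 to 32. None of the 10 genes differed between them in limma's test after adjustment (0 calls), against 0.48% of all features. Before adjustment, 3 genes had a p under 0.05 in that test, and the share of all features at this looser threshold was not counted. Gad1 had values of 0.37, 1.40, 0.30, 0.40, 0.84, 0.58 and 0.53 in BXD33, BXD34, BXD36, BXD38, BXD39, BXD40 and BXD42, against −0.45 to 1.11 with a median of 0.08 in the strains numbered up to 32. All 7 later strains thus lay above the median of the earlier ones, and the ranges overlapped. The means of Gad1 were 0.63 ± 0.38 (SD, n = 7) in the later and 0.20 ± 0.47 (SD, n = 24) in the earlier strains, a difference of 0.44 (95% interval 0.06 to 0.82; limma adjusted p = 0.18).

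Nefm averaged 0.24 ± 0.13 in the later and 0.06 ± 0.15 in the earlier strains (SD; difference 0.18, 95% interval 0.04 to 0.32; limma adjusted p = 0.15). Nefh averaged 0.01 ± 0.24 in the later and 0.40 ± 0.50 in the earlier strains (difference −0.39, 95% interval −0.78 to −0.0050; limma adjusted p = 0.24). The other 7 differences lay between −0.28 for Map2 and 0.19 for Tubb3, with adjusted p from 0.25 to 0.99. That of Tubb3 rested on single arrays, at 0.07 without BXD33 and 0.31 without BXD36, and that of Stmn2, 0.17, was 0.27 without BXD36 (limma adjusted p = 0.063). No later strain was a core array: 5 belonged to the second set, beside 3 earlier strains, and 2 to the first, beside 5. Within the second set Gad1 averaged 0.75 in the later and 1.08 in the earlier strains, and within the first 0.35 and 0.12. Within the second set Nefh averaged 0.12 and 0.11, and Nefm 0.23 and 0.12, in the later and the earlier strains. With the set as a block the difference was −0.09 for Gad1, 0.03 for Nefh and 0.09 for Nefm. None of the 10 differences then had an unadjusted p under 0.05 in limma's test. After adjustment, 0 of the 10 genes and 0% of all features passed. Without the first set, Nefm (0.21, limma adjusted p = 0.041) and Stmn2 (0.29, limma adjusted p = 0.024) were higher in the 5 later strains left than in the 19 earlier ones, but 15.9% of all features passed in that setting, close to 2 of 10.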

How the data were processed

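The deposited table holds 1 log ratio per spot and array, taken as log2, for 23040 spots and 31 arrays, and no value was missing. The submitters' processing notes name R 2.0.0 and limma without saying what each did. Steps before the ratio (background, dye and spot filtering) were not given in the sources used here. Sorted, the 31 columns were identical, which quantile normalization by the authors would give, and any shift of a whole array is thereby removed.

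Probes of a gene were averaged and spots without a single symbol kept apart, giving 21262 features. Means were tested against 0 and strain sets against each other with limma 3.58.1 (lmFit and eBayes, two-sided, Benjamini-Hochberg over all features at 0.05), in R 4.3.3. The C57BL/6J RNA stands for 1 control sample, so its own spread is left out. Related genes were compared by two-sided sign-flip permutation (100000 resamples, scipy 1.17.1), with 8 pairs adjusted together. Array sets are the arrays beyond the widest gap of each of the first 2 principal components. Both procedures were tested on simulated data. For limma the simulated arrays were independent and held no array sets, so that test cannot show how calls behave with such sets. Signal over background and probe sequences were not analysed here, so dim or cross-reacting probes could not be marked, and the number of arrays limits the precision.

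The genes and lists were chosen with earlier results of these data known. From each list, the 2 highest and 2 lowest means past the test are named, and for each of the 10 genes the 3 genes with the highest r; Ina, Abat, Aldh5a1, the neighbouring genes and the 3 strains of most extremes were named after their values were seen.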

Additional observations from a re-analysis of the deposited data

Results flagged for a closer look

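Among the 7 strains numbered 33 to 42, BXD36 stood far from the other 6 by Dixon's ratio of its gap to the whole range, which was tested for the 10 genes and for the single probes of Thy1 and Gad2. The ratio was 0.656 for Stmn2, where BXD36 had −0.25 and the others 0.35 to 0.67. It was 0.641 for Thy1 and 0.67 for the first Thy1 probe, at −0.63 in BXD36. It was 0.819 for the second Gad2 probe, at −1.29 in BXD36. Chance marks about 1 in 20 such groups, and BXD36 is 1 of only 2 later strains in the first set of arrays. No other strain was marked.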

How the results depend on the processing

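Robust variance moderation and fitting probes apart changed no call or direction of the 10 genes' means or strain differences. With probes fitted apart, 79 of 196 companion genes were positive and 61 negative, against 82 and 67 in the main fit. The share of all features was not counted for that setting. Centring arrays on their median subtracts 1 constant from all, since the columns share their sorted values, and so says nothing about strain differences. Leaving out eighth-place probes changed no call of the genes still measured, but the uncalled strain difference of Gad2 turned from negative to 0.03. Centring by printing place turned Map2 to 0.30, the Gad2 probe difference to −0.37, Map2 minus Tubb3 to 0.31 and Map2 minus Stmn2 to 0.13. Nefm lost its call there, while Map2 (positive) and Thy1 (negative) gained one. That left 4 genes positive and 4 negative, where 73.6% of all features passed in either direction. This setting centres every place, not only place 8, where Map2 and 1 Gad2 probe lay and the median spot was at −0.45. Nefm lay at place 5 and the Thy1 probes at places 4 and 5, where the median spots were at 0.08 (place 4) and 0.07 (place 5). Their means thus did not carry the shift of place 8. Against 1.2-fold, 0 of the 10 genes were positive and 1 negative, and of 196 companion genes 26 and 36, against 82 and 67 tested against 0. Over all features, 12.4% were positive and 15.6% negative against 1.2-fold, and 42.1% and 33.9% against 0. The companion counts are close to these shares. Without the second set of arrays, 2 genes were positive and 2 negative, where 70.7% of all features passed in either direction. The differences were then −0.11 for Nefl minus Nefm, −0.32 for Nefm minus Nefh and −0.0077 for Map2 minus Tubb3. Without the first set, 2 genes were higher and 0 lower in later strains, where 15.9% of all features differed in either direction. Nefm minus Nefh was then −0.43 and Tubb3 minus Stmn2 −0.042. On the core arrays, a setting chosen after seeing the data, Nefl minus Nefm was −0.048, Nefm minus Nefh −0.68, Map2 minus Tubb3 −0.0020, Map2 minus Stmn2 −0.10 and Tubb3 minus Stmn2 −0.10; beyond the smaller number of arrays, the cause was not tested. Leaving out single arrays changed 1 gene's call against 0: Map2 passed without BXD5, BXD9, BXD12 or BXD29 (lowest adjusted p 0.026). It moved the mean of Tubb3 between 0.06 and 0.12 and that of Thy1 between −0.04 and −0.02. Of the strain differences, none gained a call, but those of Camk2a and Gad2, both near 0, changed sign. No paired analysis was possible because strain numbers are not shared between the sets.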
